A study of Mus musculus with 18 samples.

Results

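The genes described here make, load, break down, take up and sense GABA (gamma-aminobutyric acid), the main inhibitory transmitter of the adult brain: Gad1, Gad2, Slc32a1, Abat, Slc6a11, Gabbr1 and Gabbr2. For each gene the brightest array target (probeset) whose annotation names that gene alone was taken, by the mean of all arrays. Each of the 7 genes had exactly 1 such target, so all 7 were measured, among 21789 targets that name a single gene and 35557 targets in all. The arrays held RNA from the lateral septum (LS) of 18 outbred hsd:ICR female mice about 70 days old, 6 in each of 3 groups, hybridized singly to Affymetrix Mouse Gene 1.0 ST arrays. Virgin mice were kept without a breeder male and were taken in diestrus. Lactating maternal mice, called maternal below, were dissected on postpartum Day 7 with their litter, set to 11 pups at birth. Pups removed mice had given birth as well, lost their litter on Day 2, were dissected on Day 7 and were also in diestrus. No transgene or drug treatment is described for any group, and every mouse was under isoflurane at dissection. Maternal against virgin mice therefore differ in mating, pregnancy, lactation and the presence of pups together, and maternal against pups removed mice in lactation and contact with pups since Day 2. The LS was punched on both sides from frozen sections and gave 1 RNA sample per mouse, which pools every cell type in the punch.

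GABA neurons make their transmitter from glutamate with glutamate decarboxylase, which exists as the enzymes GAD67 (Gad1) and GAD65 (Gad2), and the vesicular transporter VGAT (Slc32a1) loads it into synaptic vesicles. After release, GABA is cleared by plasma membrane transporters, of which GAT3 (Slc6a11) sits mostly on astrocytes, and is degraded by GABA transaminase (Abat). Metabotropic GABA-B receptors are dimers of GABAB1 (Gabbr1), which binds GABA, and GABAB2 (Gabbr2), which couples to the G protein, and most projection neurons of the LS are themselves GABA neurons.

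None of the 7 genes passed the test between any of the groups, and their measured differences were small. In limma, with Benjamini-Hochberg correction across the 35557 targets and a call at an adjusted p under 0.25, the study's threshold, 0 of 7 were called in maternal against virgin LS, where 1.65% of all targets were called. In maternal against pups removed LS 0 of 7 were called, with 0.0309% of all targets, and in pups removed against virgin LS 0 of 7, with 0.208%. Against background rates this low a count of 0 of 7 is no result about these genes, and the size of the differences is given by their intervals. No member had an unadjusted limma p under 0.05 in any of the 3 comparisons (0 of 21 values), a level that 10.4%, 8.96% and 8.13% of all targets reached in the same order. An exact two-sided permutation test over the 924 splits of 6 and 6 arrays also gave 0 of 21 under 0.05, with a smallest p of 0.165 where 0.0022 was possible. The 21 differences ran from -0.05 to 0.04 on the log2 scale, that is from -3.18% to 2.93%. Their 95% intervals, each taken alone, ran from -0.14 to 0.18 (-9.49% to 13.2%), and from -0.13 to 0.13 (-8.87% to 9.41%) for the 6 genes other than Slc6a11. In 0 of 21 pairs of groups were the arrays of 1 group all above those of the other, against 0.835%, 0.529% and 0.38% of all targets. The 3 comparisons share arrays, so their values are not independent of each other.

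**Figure D1:**
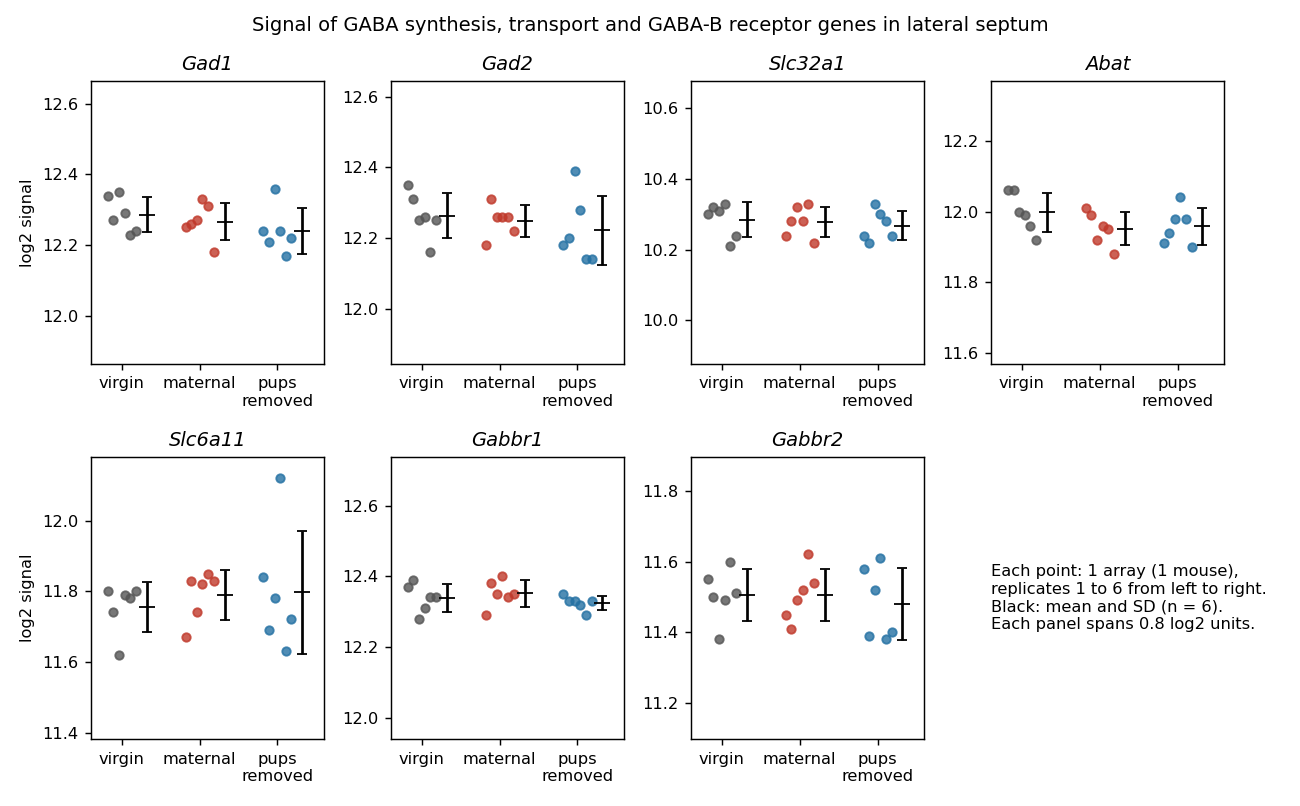
Deposited log2 signal (vertical axis) of each gene in every array, by group, with replicates 1 to 6 from left to right and the mean and SD of 6 arrays in black. Every panel spans the same width on the log2 scale, the 3 groups overlap for all 7 genes, and the highest single departure is Slc6a11 in pups removed replicate 4, at 12.12.

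Each of the 18 arrays had a median signal in the range from 7.61 to 7.7, while targets ranged from 2.33 to 14.72. No signal level was set above which a marker of the labelled tissue counts as present. Of 10 listed markers of LS neurons 9 were measured, with mean log2 signals from 7.97 (Esr1) to 12.41 (Sst), and of 10 listed markers of the neighbouring medial septum 9 were measured, from 7.36 (Chat) to 10.21 (Ache). Signals of different targets are not on a common scale, so these values do not tell the lateral from the medial septum. Some markers of other cells moved with the groups. Of 16 measured markers of striatal medium spiny neurons, which lie beside the septum and are GABA neurons too, 15 were lower in maternal than virgin LS and 4 were called lower, where 0.813% of all targets were. Their mean lay between 10.004 and 10.23 in virgin, 9.31 and 9.90 in maternal and 9.53 and 10.36 in pups removed arrays, with no overlap of virgin and maternal. Of 10 markers of neural stem cells and neuroblasts, 9 were lower in maternal than virgin LS and 5 were called lower, and their mean lay between 8.78 and 8.96 in virgin, 8.57 and 8.75 in maternal and 8.65 and 8.91 in pups removed arrays, again with no overlap of virgin and maternal. All 8 choroid plexus markers were lower in maternal than virgin LS with 0 called in limma and 0 at an unadjusted p under 0.05, over wide ranges of their mean (7.77 to 9.85 in virgin, 7.76 to 9.44 in maternal and 7.63 to 9.81 in pups removed arrays). Of 9 microglia markers 2 were called lower and of 9 endothelial markers 1 was called higher in maternal than virgin LS, beside 0.813% and 0.832% of all targets. By direction these 2 lists were mixed, with 4 microglia markers higher and 5 lower, and 5 endothelial markers higher and 4 lower. In whole tissue, fewer cells of a type and less RNA per cell cannot be told apart.

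Gad1 supplies most of the GABA of the brain at rest. Its signal was 12.23 to 12.35 in virgin arrays, with a median of 12.28, 12.18 to 12.33 in maternal arrays (median 12.27) and 12.17 to 12.36 in pups removed arrays (median 12.23). The groups overlapped over nearly their whole ranges, and the highest array of all was pups removed replicate 3. Maternal LS differed from virgin LS by -0.020 (standard error, SE, 0.037, limma adjusted p = 0.894) and from pups removed LS by 0.027 (SE 0.037, limma adjusted p = 0.864). Pups removed LS differed from virgin LS by -0.047 (SE 0.037, limma adjusted p = 0.798), with 5 of 6 pups removed arrays below the virgin mean. As deposited, the intervals for Gad1 over the 3 comparisons run from -8.22% to 7.46%. With the median of each array subtracted, the pups removed against virgin difference was -0.077 (limma adjusted p = 0.565).

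Gad2, whose enzyme is anchored at nerve terminals and raises GABA output on demand, lay between 12.16 and 12.35 in virgin arrays (median 12.26), between 12.18 and 12.31 in maternal arrays (median 12.26) and between 12.14 and 12.39 in pups removed arrays (median 12.19). The pups removed group held both the highest array, replicate 3, and the 2 lowest, replicates 5 and 6, and its SD of 0.097 was above those of virgin (0.064) and maternal arrays (0.044). The difference was -0.015 in maternal against virgin LS (SE 0.044, limma adjusted p = 0.936), 0.027 against pups removed LS (SE 0.044, limma adjusted p = 0.889), and -0.042 in pups removed against virgin LS (SE 0.044, limma adjusted p = 0.863). Its intervals run from -8.87% to 8.60%.

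Slc32a1, the transporter that a cell needs to release GABA from vesicles, had a spread next to the smallest of the 7. Virgin arrays lay between 10.21 and 10.33 (median 10.31), maternal arrays between 10.22 and 10.33 (median 10.28) and pups removed arrays between 10.22 and 10.33 (median 10.26). The 3 groups shared the same highest value and covered almost the same range. Differences were -0.007 in maternal against virgin LS (SE 0.032, limma adjusted p = 0.963), 0.010 against pups removed LS (SE 0.032, limma adjusted p = 0.954) and -0.017 in pups removed against virgin LS (SE 0.032, limma adjusted p = 0.934). As deposited, its intervals run from -5.65% to 5.50%. With the median of each array subtracted, the pups removed against virgin difference was -0.047 (limma adjusted p = 0.722).

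Abat, the mitochondrial enzyme that degrades GABA, gave the smallest p among the 7 genes. Its signal ran from 11.92 to 12.06 in virgin arrays (median 11.995), from 11.88 to 12.01 in maternal arrays (median 11.96) and from 11.90 to 12.04 in pups removed arrays (median 11.96). In both postpartum groups 5 of 6 arrays lay below the virgin mean, yet the ranges overlapped. The difference from virgin LS was -0.047 in maternal mice (SE 0.035, limma adjusted p = 0.672, unadjusted p = 0.197, exact permutation p = 0.165) and -0.040 in pups removed mice (SE 0.035, limma adjusted p = 0.824), and maternal and pups removed LS differed by -0.007 (SE 0.035, limma adjusted p = 0.971). The virgin arrays are shared by the first 2 of these values. After quantile normalization, which forces the same distribution on every array, the differences from virgin LS grew to -0.077 and -0.068, and the exact permutation p, not adjusted, was 0.030 and 0.043, while the limma adjusted p stayed at 0.407 and 0.529. As deposited, the intervals for Abat run from -7.98% to 4.73%.

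Slc6a11, the GABA transporter of astrocytes, varied most. Virgin arrays lay between 11.62 and 11.80 (median 11.79), maternal arrays between 11.67 and 11.85 (median 11.83) and pups removed arrays between 11.63 and 12.12 (median 11.75). The pups removed SD of 0.174, against 0.070 in each of the other groups, rested on replicate 4, the array at 12.12, since the other 5 pups removed arrays did not exceed 11.84. Maternal LS differed from virgin LS by 0.035 (SE 0.065, limma adjusted p = 0.895) and from pups removed LS by -0.007 (SE 0.065, limma adjusted p = 0.985), and pups removed LS differed from virgin LS by 0.042 (SE 0.065, limma adjusted p = 0.916). Without pups removed replicate 4 the last 2 values turned to 0.058 and -0.023. Slc6a11 thus has the widest intervals, from -9.49% to 13.2%. Markers of astrocytes, of which 13 were measured, had 0 called in the 3 comparisons (limma), beside 1.65%, 0.0309% and 0.208% of all targets. At an unadjusted limma p under 0.05 there were 1, 4 and 1 of the 13, beside 10.4%, 8.96% and 8.13% of all targets. The 4 in maternal against pups removed LS were Aqp4, Gjb6, Fgfr3 and Aldoc. They did not share a direction, since Gjb6 was the highest of the 13 at 0.28 and Aqp4 the lowest at -0.16. Of the 13 markers 6 were higher and 7 lower in that comparison.

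Gabbr1, whose product binds GABA in the receptor dimer, was the steadiest member. Its signal lay between 12.28 and 12.39 in virgin arrays (median 12.34), between 12.29 and 12.40 in maternal arrays (median 12.35) and between 12.29 and 12.35 in pups removed arrays (median 12.33). The pups removed range fell inside both of the others. Differences were 0.013 in maternal against virgin LS (SE 0.028, limma adjusted p = 0.907), 0.027 against pups removed LS (SE 0.028, limma adjusted p = 0.816) and -0.013 in pups removed against virgin LS (SE 0.028, limma adjusted p = 0.941). As deposited, the intervals for Gabbr1 run from -4.86% to 6.09%. With the median of each array subtracted, the pups removed against virgin difference was -0.043 (limma adjusted p = 0.666).

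Gabbr2, the G protein coupling partner of Gabbr1, ran from 11.38 to 11.60 in virgin arrays (median 11.51), from 11.41 to 11.62 in maternal arrays (median 11.51) and from 11.38 to 11.61 in pups removed arrays (median 11.46). Virgin and maternal LS had the same mean, 11.51, and the same SD, 0.073. The difference between them was 0.00 (SE 0.050, limma adjusted p = 1), and maternal LS differed from pups removed LS by 0.025 (SE 0.050, limma adjusted p = 0.913). Pups removed LS differed from virgin LS by -0.025 (SE 0.050, limma adjusted p = 0.936), with 3 of 6 arrays on each side of the virgin mean. Its intervals run from -8.60% to 9.41%.

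**Figure D2:**
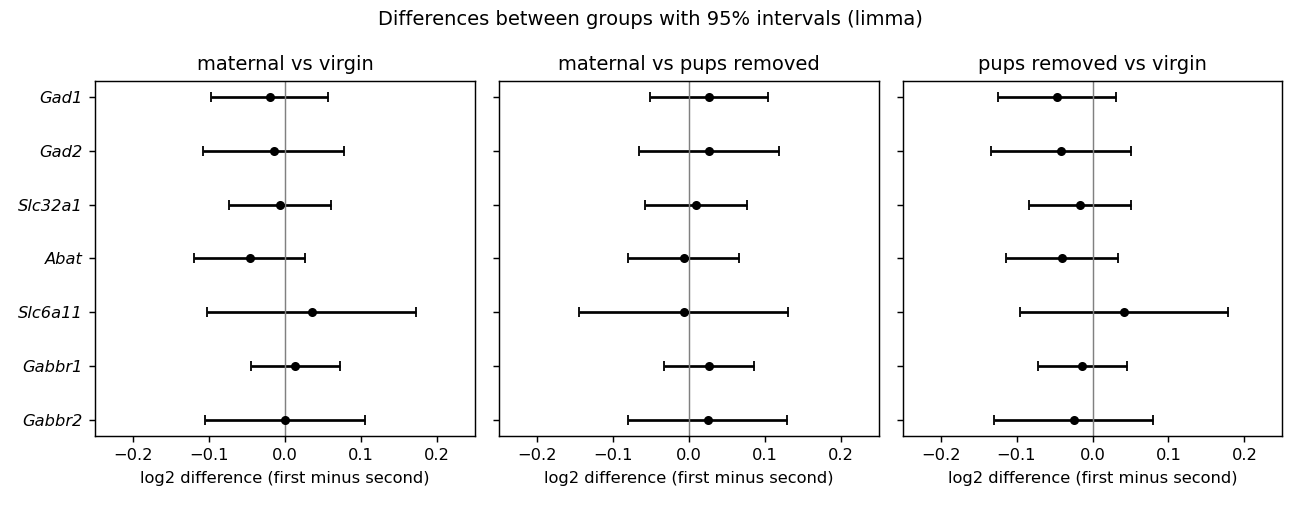
Difference of group means on the log2 scale (horizontal axis, first group minus second) with its 95% interval from limma, for each gene and comparison. All 21 intervals span 0, those of Gabbr1 and Slc32a1 are the narrowest and that of Slc6a11 is the widest.

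By direction alone, 2 of 7 genes had a higher mean in maternal than in virgin LS, 4 a lower one and 1 the same, and 42.1% of the 12667 targets that name a single gene and have a mean at or above the median of all targets (bright targets below) were higher. Against pups removed LS 5 of 7 were higher in maternal mice, beside 34% of bright targets, and in pups removed against virgin LS 1 of 7 was higher, beside 56.5%. No test was made of these counts, and the signs of Slc32a1 and Gabbr1 in the first comparison and of Slc6a11 and Abat in the second turned under other scalings or weights of the arrays. The median difference over the members was -0.01, 0.03 and -0.03 in that order, beside -0.01, -0.02 and 0.01 over bright targets.

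The genes differed in how closely the 6 mice of a group resembled each other. The SD within groups, pooled over the 3 groups, was 0.034 for Gabbr1 and 0.045 for Slc32a1, and only 0.845% and 5.60% of bright targets had a smaller one. It was 0.052 for Abat and 0.056 for Gad1, with 11.8% and 16.6% of bright targets below them. Gad2 (0.072, 40.7%) and Gabbr2 (0.084, 57.9%) lay near the median of bright targets, 0.078, and Slc6a11 (0.116, 83.5%) lay above it. Over all 18 arrays Gabbr1 and Slc32a1 each spanned 0.12 and Slc6a11 spanned 0.50 on the log2 scale.

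To ask whether the genes rose and fell together from mouse to mouse, each value was taken minus its group mean and all 21 pairs of genes were correlated over the 18 arrays. Of the 21 pairs, 20 had a positive r, some of them near 0 (0.003 for Abat and Gabbr2, 0.020 for Abat and Gabbr1). An adjusted permutation p under 0.05 was reached by 4. How often pairs of other targets reach these values was not computed. Gad2 and Slc32a1 had r = 0.666 (permutation p = 0.0037, adjusted 0.0262) and Spearman rho = 0.670 (permutation p = 0.0043, adjusted 0.0241), and r = 0.613 (permutation p = 0.0175) without the 2 arrays farthest from the median of Gad2. Gad1 and Gad2 had r = 0.698 (permutation p = 0.0050, adjusted 0.0262) and rho = 0.670 (permutation p = 0.0046, adjusted 0.0241). Gad1 and Slc32a1 had r = 0.669 (permutation p = 0.0047, adjusted 0.0262) and rho = 0.718 (permutation p = 0.0023, adjusted 0.0238). Without the 2 arrays farthest from the median of Gad1, r was lower for both, 0.504 (permutation p = 0.0776) and 0.484 (permutation p = 0.110), and rho was not computed without them. After quantile normalization r was 0.604 and 0.632, with adjusted permutation p of 0.0786 and 0.0601. The presynaptic genes Gad1, Gad2 and Slc32a1 thus formed 3 of the 4 pairs.

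The closest pair was Slc6a11 with Gabbr2, a transporter of astrocytes with a receptor subunit. They had r = 0.761 (permutation p = 0.00025, adjusted 0.0052) and rho = 0.766 (permutation p = 0.00055, adjusted 0.0115), and r = 0.732 (permutation p = 0.0055) without 2 arrays. Within the virgin, maternal and pups removed groups r was 0.822, 0.478 and 0.871, over 6 arrays each. The receptor partners Gabbr1 and Gabbr2 were less close, with r = 0.325 (permutation p = 0.183, adjusted 0.384) and rho = 0.212 (permutation p = 0.403, adjusted 0.704). Their r depended on the setting. It was 0.569 after quantile normalization (adjusted permutation p = 0.0923) and 0.037 without 2 arrays (permutation p = 0.892). Abat reached an adjusted permutation p under 0.05 with none of the other genes, and its highest r was 0.516, with Slc32a1 (permutation p = 0.0439, adjusted 0.184).

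**Figure D3:**
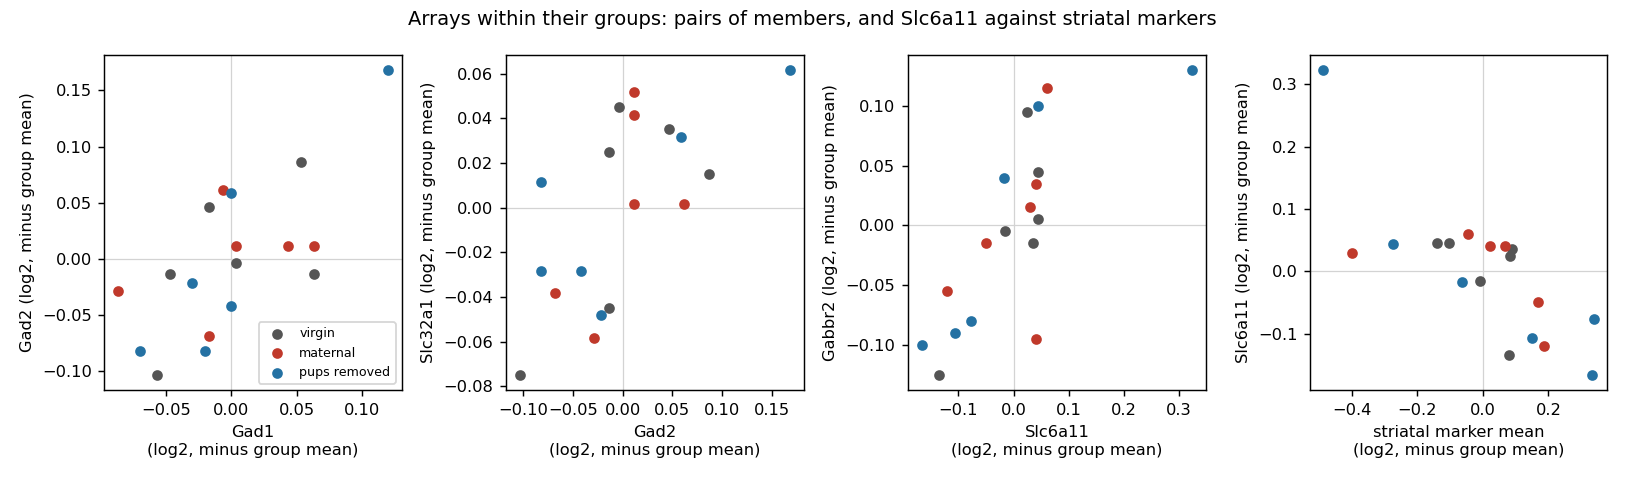
Values of single arrays minus their group mean on the log2 scale, for Gad1 and Gad2, Gad2 and Slc32a1, Slc6a11 and Gabbr2, and for Slc6a11 against the mean of 16 striatal markers, coloured by group. The first 3 panels slope upward (r = 0.698, 0.666 and 0.761) and the last slopes downward (r = -0.787), with pups removed replicate 4 at the end of the last 2.

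The levels of the genes were also set against the means of 8 lists of cell type markers, stem cells and neuroblasts not among them, again minus group means, 56 relations in all, which were added after the data had been seen. Of these, 1 had an adjusted permutation p under 0.05. Slc6a11 was lower in mice whose striatal marker mean was higher, with r = -0.787 (permutation p = 0.00028, adjusted 0.0157) and rho = -0.761 (permutation p = 0.00073, adjusted 0.0409), and r = -0.731 (permutation p = 0.0018) without the 2 arrays farthest from the median of the markers. Pups removed replicate 4, the array with the highest Slc6a11, had a striatal mean of 9.53, the lowest of its group, and replicates 5 and 6, with 10.35 and 10.36, had Slc6a11 at 11.63 and 11.72. Gabbr2 had r = -0.669 with the same markers (permutation p = 0.0124, adjusted 0.104; rho = -0.697, adjusted 0.0855). Slc6a11 had r = 0.784 with medial septal markers (permutation p = 0.0059, adjusted 0.103; rho = 0.613, adjusted 0.0855), which fell to 0.452 (permutation p = 0.110) without 2 arrays, and r = -0.033 with astrocyte markers (permutation p = 0.859, adjusted 0.883). Gad1 and Gad2 had r = 0.647 and 0.696 with lateral septal markers (adjusted permutation p = 0.103 and 0.104). The part of the punched area in any of these values was not tested.

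As the closest pair, Slc6a11 and Gabbr2 have their sequence shown upstream of the annotated start. The 250 bases before the start were taken from RefSeq (build GRCm38.p6), which held such a window for 6 of the 7 genes. The window of Slc6a11 is chr6:114130991-114131240 on the plus strand and that of Gabbr2 is chr4:46991715-46991964 on the minus strand, both outside the annotated gene. Capitals mark the GC box GGGCGG on either strand (CCGCCC when read on the other).
Slc6a11: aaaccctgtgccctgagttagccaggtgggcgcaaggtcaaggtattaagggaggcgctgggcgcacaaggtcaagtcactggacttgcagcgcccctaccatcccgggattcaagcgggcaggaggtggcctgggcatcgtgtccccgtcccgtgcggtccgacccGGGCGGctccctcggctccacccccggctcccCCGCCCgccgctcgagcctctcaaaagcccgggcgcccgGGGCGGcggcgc
Gabbr2: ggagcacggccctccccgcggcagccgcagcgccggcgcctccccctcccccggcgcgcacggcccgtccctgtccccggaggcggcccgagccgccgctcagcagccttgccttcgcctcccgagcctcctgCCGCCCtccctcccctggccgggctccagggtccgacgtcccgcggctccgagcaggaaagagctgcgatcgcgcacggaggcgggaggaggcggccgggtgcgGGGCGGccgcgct
The windows hold 3 and 2 GC boxes and have GC contents of 71.2% and 80.8%, where the median of 32851 mouse windows of the same length is 52.4% and 32.7% of them hold a GC box. Neither holds a TATAAA (12.4% of windows), a CCAAT (33.8%) or the cAMP response element TGACGTCA (1.55%), each searched on both strands. Gabbr1, the partner of Gabbr2, has 2 GC boxes and a GC content of 66.0%. Gad1 has 1 GC box and 1 TATAAA (GC content 58.0%). Gad2 (64.0%) and Slc32a1 (62.4%) have 0 GC boxes, and Gad2 has 1 CCAAT. The windows of Gad1, Gad2 and Slc32a1 lie inside the annotated gene. A match is a description of these letters, not a binding site.

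For each gene the 3 bright targets most alike, by r over the 18 arrays of values minus group means, are given as a description. Gad1 was most like Camk2d, Ankrd34b and Slc8a1 (r from 0.854 to 0.827), and Gad2 most like Scn2a, Syt1 and Ankrd34b (0.873 to 0.837), so that 1 gene, Ankrd34b, stood in both. Slc32a1 was most like Gspt2, Necap1 and 1700001L19Rik (0.882 to 0.849), Abat most like Adgrf5, Atp9a and Rad21 (0.893 to 0.842), and Slc6a11 most like Kcnk9, Iqsec3 and Car10 (0.921 to 0.895). Gabbr1 was most like Clcf1, Fgf22 and 1810010K12Rik (0.868 to 0.830) and Gabbr2 most like Ppp1r26, Src and Tanc1 (0.857 to 0.838). Among 12666 candidates Slc6a11 stood at place 27 for Gabbr2, Gad2 at place 56 for Gad1, and Gad1 at place 92 for Slc32a1, so many genes tracked each member more closely than another member did. The arrays share their tissue punch and their scaling across all these genes.

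The rest of the GABA pathway was followed through 5 lists. Of other genes of GABA transport and metabolism, 13 of 15 were measured, and 1 fell in maternal against virgin LS, where 0.813% of all targets fell. Slc38a3, a transporter that moves glutamine across the membrane of astrocytes, lay between 10.64 and 11.02 in virgin, between 10.50 and 10.70 in maternal and between 10.78 and 10.98 in pups removed arrays. All 6 maternal arrays lay below the virgin mean, while they overlapped the virgin arrays. They also lay below every pups removed array, and 0.529% of all targets had no overlap, in either direction, between these groups. Slc38a3 fell by 0.21 (SE 0.063, limma adjusted p = 0.244) against virgin LS. Its difference from pups removed LS was -0.27 (SE 0.063, limma adjusted p = 0.278), which missed the threshold. The call was near the threshold. It was lost under 4 of 8 other settings of the fit, and of 18 arrays left out in turn it held without virgin replicates 1 and 6, maternal replicate 1 and pups removed replicates 4 and 6 (5 arrays), with adjusted p from 0.128 to 0.468 over all of these. Against virgin LS the neuronal glutamine transporter Slc38a2 (0.17, limma adjusted p = 0.376), its relative Slc38a5 (-0.19, limma adjusted p = 0.372) and Slc6a13, the GABA transporter GAT2 (0.25, limma adjusted p = 0.501), did not pass, and Glul, the glutamine synthetase of astrocytes, differed by 0.10 from pups removed LS (limma adjusted p = 0.504).

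Of 20 measured partners and effectors of GABA-B receptors, out of 21 listed, 0 were called in the 3 comparisons in limma, with 3, 2 and 2 at an unadjusted p under 0.05. Of all targets 1.65%, 0.0309% and 0.208% were called, and 10.4%, 8.96% and 8.13% had an unadjusted limma p under 0.05. Among the auxiliary KCTD subunits, Kctd8 differed by -0.078 in maternal against virgin LS (limma adjusted p = 0.435) and Kctd12 by 0.060 in maternal against pups removed LS (limma adjusted p = 0.556). Kcnj6, a subunit of the GIRK potassium channels that the receptor opens, differed by 0.16 in maternal against virgin LS (SE 0.057, limma adjusted p = 0.328), and Cacna1b, the N-type calcium channel that it inhibits, by 0.14 (SE 0.046, limma adjusted p = 0.296). Grk4, a kinase of G protein-coupled receptors, differed by 0.27 in pups removed against virgin LS (SE 0.066, limma adjusted p = 0.252), at a mean signal of 5.96 that only 18.6% of targets lie below. The median difference of this list was 0.02, -0.01 and 0.01 in the 3 comparisons, beside 0.01, -0.003 and 0.01 over all targets.

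Of 15 measured scaffold genes of the inhibitory synapse, out of 17, 0 were called in limma, with 2, 0 and 0 at an unadjusted p under 0.05. The shares of all targets were 1.65%, 0.0309% and 0.208% called, and 10.4%, 8.96% and 8.13% at an unadjusted limma p under 0.05. Dag1 (-0.083, limma adjusted p = 0.450) and Plcl1 (0.15, limma adjusted p = 0.474) came nearest in maternal against virgin LS. Of 12 measured transcription factors of GABA neurons, out of 14, 0 were called in limma, with 3, 1 and 1 at an unadjusted p under 0.05, beside the same shares of all targets. In maternal against virgin LS 10 of the 12 had a lower mean, with a median difference of -0.07, and the smallest p was that of Meis2 (-0.18, SE 0.056, limma adjusted p = 0.269), followed by Nkx2-1 (0.11, limma adjusted p = 0.452) and Maf (-0.10, limma adjusted p = 0.460). In pups removed against virgin LS Dlx2 differed by -0.12 (limma adjusted p = 0.595). Meis2 and the Dlx genes are also used by striatal neurons and by neuroblasts. The marker means of both did not overlap between virgin and maternal LS (10.004 to 10.23 against 9.31 to 9.90 for striatal neurons, 8.78 to 8.96 against 8.57 to 8.75 for stem cells and neuroblasts), and their part in these values was not tested.

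Of the GABA-A receptor subunits, the chloride channels through which GABA acts fastest, 16 of 19 were measured, and 2 fell in maternal against virgin LS, beside 0.813% of all targets. Gabrd, the extrasynaptic delta subunit, lay between 8.63 and 8.81 in virgin, 8.11 and 8.52 in maternal and 8.10 and 8.84 in pups removed arrays. Virgin and maternal arrays did not overlap, as for 0.835% of all targets, and the pups removed arrays spread over both. It fell by 0.37 (SE 0.10, limma adjusted p = 0.212). Gabrr1, the rho1 subunit, fell by 0.21 (SE 0.062, limma adjusted p = 0.229), from virgin arrays at 6.79 to 7.05 to maternal arrays at 6.62 to 6.92, at a mean signal that 33.7% of targets lie below. Under other settings of the fit at the same threshold, the call of Gabrd held in 8 of 8 and that of Gabrr1 in 5 of 7. With 1 array left out, Gabrd was lost without any 1 of 8 arrays, virgin replicates 2 to 5 and maternal replicates 2, 4, 5 and 6 (limma adjusted p up to 0.381), and Gabrr1 without any 1 of 11 arrays of the 3 groups (up to 0.416). The part of striatal neurons and of stem cells and neuroblasts, whose markers were lower in the same arrays, was not tested for either. Gabra4, the alpha4 subunit (-0.19, SE 0.062, limma adjusted p = 0.296), and Gabre, the epsilon subunit (0.42, SE 0.15, limma adjusted p = 0.311), missed the threshold in this fit. The study's own limma analysis called both, as well as Gabrd, in maternal against virgin LS at the same threshold. By quantitative PCR the study also reported Gabrd and Gabra4 lower and Gabre higher in maternal LS than in virgin and pups removed LS. In maternal against pups removed and in pups removed against virgin LS 0 subunits were called in limma, with 3 and 1 at an unadjusted p under 0.05. Of all targets 0.0309% and 0.208% were called there, and 8.96% and 8.13% had an unadjusted limma p under 0.05. In all 5 lists together 3 of 76 genes were called in maternal against virgin LS, beside 1.65% of all targets.

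**Figure D4:**
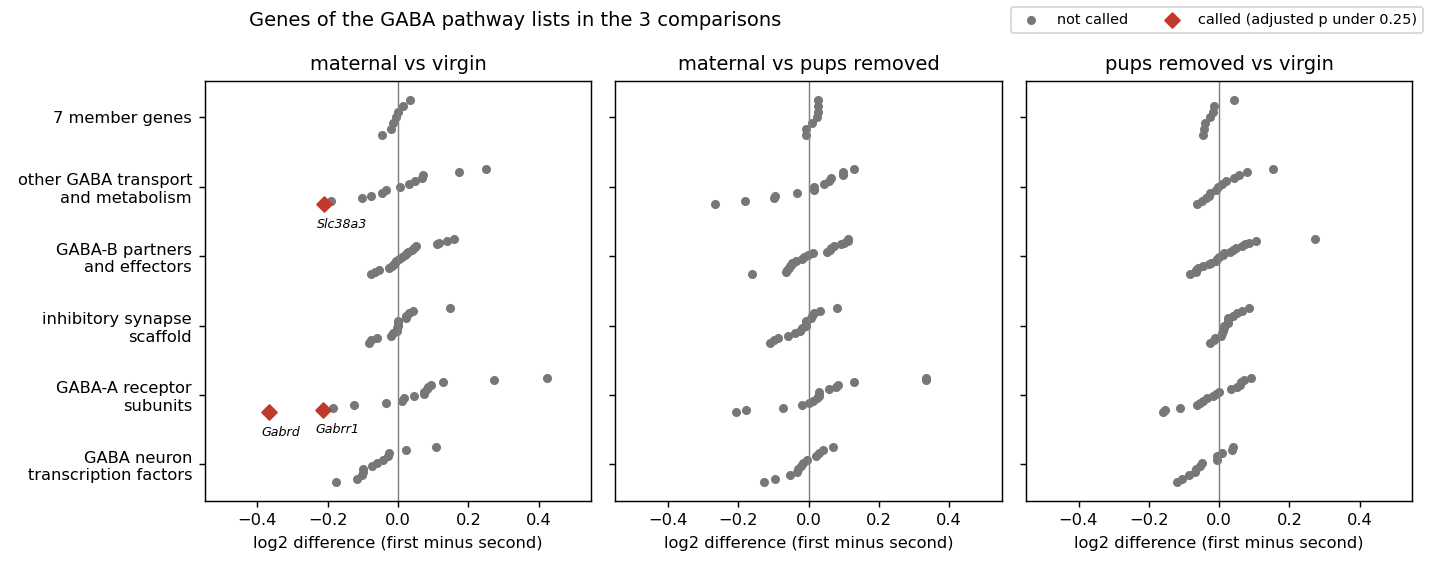
Difference of group means on the log2 scale (horizontal axis, first group minus second) for every measured gene of the 7 and of 5 pathway lists, in 3 comparisons. The 7 genes lie between -0.05 and 0.04 in every panel, while the lists spread from -0.37 (Gabrd) to 0.42 (Gabre), and the 3 called genes, in red, are all lower in maternal than virgin LS.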

How the data were processed

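The values are log2 signals per target, which the authors deposited for 18 arrays after summarizing probe intensities with PLIER and a background correction by GC bin in Affymetrix Power Tools 1.12.0. They are rounded to 2 decimals. The methods place normalization in this same step, and how arrays were scaled to each other is not given in the sources used here. RNA was extracted in triplets of 1 mouse per group, and the labels do not say which arrays form a triplet. A target stands for a gene only if its annotation names that gene alone, and signals of different targets are not on a common scale, so that the share of targets with a lower signal only describes how dim a target is. The number of arrays, not a read depth, limits the precision.

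A model with 3 group means was fitted to all 35557 targets with limma 3.58.1 in R 4.3.3 (empirical Bayes, Benjamini-Hochberg adjustment over all targets, called at an adjusted p under 0.25), after a test on simulated data. Differences are the first group minus the second. Exact permutation tests of single values and correlations of values minus group means (100000 permutations within groups, Benjamini-Hochberg adjustment over 21 pairs or 56 relations) were run in Python 3.11.15 with numpy 2.4.6 and scipy 1.17.1. The fits were repeated with a replicate block, with quantile normalization, centring of arrays, a filter on dim targets, trend and robust moderation or array weights, on 2 groups only, on targets that name 1 gene, at a threshold of 0.05, and without each array. Promoter windows came from RefSeq tables.

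Named are the 7 genes, from each pathway list up to 4 genes with the smallest limma p in any comparison, and for each of the 7 genes the 3 most alike. Kctd8, Slc6a13 and the markers of cell types are outside that rule and were picked once their values had been seen. The 7 genes, the lists and the tests were chosen with earlier results of these data known.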

Additional observations from a re-analysis of the deposited data

Results flagged for a closer look

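In 21 sets of 6 arrays (7 genes in 3 groups), 2 held an array whose gap to its nearest neighbour, divided by the range of the group, was above Dixon's critical value of 0.625, and chance alone flags about 1 in 20. Gad1 in pups removed replicate 3 was at 12.36, with a ratio of 0.632, and without that array the pups removed against virgin difference of Gad1 went from -0.047 to -0.071. Slc6a11 in virgin replicate 3 was at 11.62, with a ratio of 0.667, and without it the maternal against virgin difference of Slc6a11 went from 0.035 to 0.008. Leaving out either array changed no call of the 7 genes. Without virgin replicate 3, however, the maternal against virgin calls of Slc38a3, Gabrd and Gabrr1, described above, were lost (limma adjusted p = 0.396, 0.350 and 0.383).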

How the results depend on the processing

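Members called stayed at 0 of 7 in the 3 comparisons under the 9 other settings and without each of the 18 arrays, and over all these fits the smallest limma adjusted p of a member was 0.407. No pairing by replicate number was seen (0 of 18 correlations of same-numbered arrays exceeded 0.1, and 1 of 18 arrays was closest to its own number). Whether same-numbered arrays form a triplet cannot be told from this, since a weak shared effect could go unseen. With the replicate block 356 of all targets, instead of 585, were called in maternal against virgin LS. These held 0 members and lacked Slc38a3 and Gabrr1 (limma adjusted p = 0.292 and 0.343). In that comparison 1309 were called among targets with a mean at or above the median, 0 at a threshold of 0.05, and 10 to 1639 with 1 array left out (without maternal replicate 5 and virgin replicate 6). In maternal against pups removed LS the 11 called became 42 after quantile normalization, 7 with array medians removed, 225 among the brighter targets, 30 with trend and robust moderation, 783 with array weights, 309 among targets naming 1 gene, 5 at a threshold of 0.05 and 5 to 719 with 1 array left out (without maternal replicate 4 and pups removed replicate 4). In pups removed against virgin LS the 74 became 24 among the brighter targets, 42 with array weights, 33 with the 2 groups only, 7 among targets naming 1 gene, 7 at a threshold of 0.05 and 18 to 266 with 1 array left out (without virgin replicates 2 and 4). The cause was not tested. After quantile normalization 2 of 21 pairs of members passed instead of 4, and 2 of 21 exact p values were under 0.05 instead of 0, both of Abat. Signs of differences near 0 turned. In maternal against virgin LS Slc32a1 turned to 0.00685 after quantile normalization and 0.00313 with array weights, and Gabbr1 to -0.00333 with array medians removed. In maternal against pups removed LS Slc6a11 turned to 0.0119, 0.00667 and 0.0163 under these 3 (quantile, medians, weights), and Abat to 0.00667 with array medians removed. With 1 array left out, differences from virgin LS in maternal mice ran from -0.0357 to 0.00233 for Gad2 and -0.022 to 0.005 for Slc32a1, differences from pups removed LS from -0.018 to 0.010 for Abat, -0.000333 to 0.0223 for Slc32a1 and -0.040 to 0.058 for Slc6a11, and that of Slc6a11 in pups removed against virgin LS from -0.023 to 0.075.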
